A study of Mus musculus with 6 samples.

Results

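The 52 mouse genes described here encode Wnt ligands, their receptors and co-receptors, secreted inhibitors, R-spondins with their LGR receptors, the TCF and LEF factors of the nucleus, and 5 feedback genes that canonical Wnt signalling is known to switch on. They were taken as a fixed list of symbols from the 27179 genes of the count files, and the list was drawn up with earlier results of these data known. RNA-seq had been performed in 3 immortalized lines of mouse embryonic fibroblasts (MEFs) of the C57BL/6 strain that lack several proteins of the circadian clock, with 2 libraries per line. Cry/Per_KO cells lack CRY1, CRY2, PER1 and PER2, Per/Nr1d_KO cells lack PER1, PER2, NR1D1 and NR1D2, and Cry/Per/Nr1d_KO cells lack all 6 proteins. PER1 and PER2 were therefore absent from every line, and no line with an intact clock was sequenced. The question of the study was how CRY and NR1D, each without PER, affect the transcriptome. The Cry/Per/Nr1d_KO line is 1 clone that was made with CRISPR from Cry/Per_KO cells, while Per/Nr1d_KO had been made earlier. By the study's account the lines have a common source. With 1 line per genotype, the effect of a genotype and the history of a line cannot be told apart. All lines were grown in DMEM with fetal bovine serum and received no treatment before RNA was prepared.

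Before the values, one limit on the names must be given. For the 4 libraries without CRY and PER, the genotype label disagrees with the name given to the deposited counts: counts deposited as Cry/Per_KO carry the label Cry/Per/Nr1d_KO, and the reverse. Libraries are grouped here by genotype label, and all 3 pairs of lines were compared. If the labels were exchanged, the difference between these 2 pairs would turn its sign, and the 2 comparisons with Per/Nr1d_KO would trade places. Transcripts of the 6 mutated clock genes (both Nr1d, both Per and both Cry genes) were counted in every library, the lowest value being 1004 normalized counts of Per2 in Per/Nr1d_KO, so that the presence of RNA does not tell the lines apart. The levels of genes that NR1D proteins are known to repress, however, ran against the genotype labels. Arntl, which encodes BMAL1, had 1192 and 1171 normalized counts under the label Cry/Per/Nr1d_KO, 2176 and 2208 under Cry/Per_KO and 2493 and 2455 under Per/Nr1d_KO, and Cry1 had 1698 and 1724 normalized counts under the label Cry/Per/Nr1d_KO, 5323 and 5478 under Cry/Per_KO and 1535 and 1592 under Per/Nr1d_KO. By the test described below, both were called higher in the pair labelled Cry/Per_KO, which should keep NR1D, than in the pair labelled Cry/Per/Nr1d_KO, with log2 fold changes of 0.89 (SE 0.058, adjusted p = 2.4e-09) and 1.66 (SE 0.053, adjusted p = 9.6e-13), the reverse of what repression by NR1D would give and the order that the deposited names would give. Arntl in Per/Nr1d_KO, which lacks NR1D, was not called against the pair labelled Cry/Per_KO (0.17) and was called higher than in the pair labelled Cry/Per/Nr1d_KO (1.07). Of the other mutated genes, Nr1d1 and Per1 were also called higher under the label Cry/Per_KO, at 1.56 and 0.90, while Nr1d2, Per2 and Cry2 stayed below the limit on the fold, at 0.65, 0.45 and 0.22. The paper reports lower Arntl, Cry1 and Nr1d1 mRNA in Cry/Per_KO than in Cry/Per/Nr1d_KO, which is the order by the deposited names. It also describes Arntl mRNA in Per/Nr1d_KO as similar to that in Cry/Per/Nr1d_KO, again the order by those names. Cry/Per_KO and Cry/Per/Nr1d_KO therefore stand throughout for the libraries so labelled. The doubt about the labels bears on each direction between them and on which of them is compared with Per/Nr1d_KO. The libraries held 53764390 to 85927236 counts, and the correlation of log2 values between the 2 libraries of a line was at least 0.9995 across genes. As for cell type, 7 of 10 fibroblast markers reached the filter described below, and of these Col1a1, Fn1, Vim and Pdgfrb were abundant in each line, while Thy1 and Lum lay at or below 9.77 normalized counts. These markers were not even across the lines: Col3a1 had 42809.7 and 43797 normalized counts in Per/Nr1d_KO, 836 and 801 under the label Cry/Per/Nr1d_KO and 289 and 296 under Cry/Per_KO, Col1a1 was 4.73-fold higher in Per/Nr1d_KO than in Cry/Per_KO, and Pdgfra and Pdgfrb were 2.36-fold and 2.52-fold lower. Of the blood cell markers, Cd3e was at 0 and Ptprc and Adgre1 reached at most 3.95, while Cd68, a lysosomal protein typical of macrophages, lay at 109 to 276 and was called higher in Per/Nr1d_KO than in Cry/Per/Nr1d_KO (1.14) and Cry/Per_KO (0.81), and of the 6 epithelial markers, Cdh1 reached 110.5 in Per/Nr1d_KO, where Epcam had 26.6 and 18.1 against 25.7 and 33.3 under the label Cry/Per/Nr1d_KO. The 4 endothelial and 4 muscle markers, all below the filter, were lowest in sum under the label Cry/Per_KO, where many members were lowest too. Their sums there were 48.97 and 57.9 for endothelium and 47.9 and 49.1 for muscle, while the other libraries had 113 to 138 and 122 to 201. Within the endothelial sum, Kdr was lowest under that label (18.9 and 23.6), while Pecam1 and Cdh5 were lowest in Per/Nr1d_KO. Of 5 neural markers, Tubb3 and Map2 reached the filter and Olig2 was at 0, and their summed level was 5383 to 5858 in the lines without CRY and PER and 1109 and 1191 in Per/Nr1d_KO. That sum covers unlike patterns, since Map2 was lowest in Per/Nr1d_KO (355 and 333), Tubb3 was 5.22-fold lower in Cry/Per_KO than in Cry/Per/Nr1d_KO (log2 fold change -2.38), and Sox2, below the filter, had its highest values in Per/Nr1d_KO (161 and 113). The part of these markers in the results was not tested.

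Wnt proteins are secreted glycoproteins that bind Frizzled receptors. In the canonical branch, a Wnt joins a Frizzled to the co-receptor LRP5 or LRP6, the destruction complex around AXIN is blocked, and β-catenin accumulates and acts with TCF and LEF factors on target genes. In the non-canonical branch, ligands such as WNT5A act through ROR receptors and Frizzleds on cell shape and movement. SFRP proteins and WIF1 bind Wnts outside the cell, Dickkopf proteins such as DKK1 and DKK2 bind LRP5 and LRP6, and R-spondins act with LGR receptors to hold back ZNRF3 and RNF43, the ubiquitin ligases that remove Frizzleds from the surface. In the mesenchyme of the embryo, from which such fibroblasts come, the pathway is known for its part in limb patterning and in the choice between bone, cartilage and fat.

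Of the 52 genes, 34 reached a mean of 100 normalized counts over the 6 libraries and were tested, and the other 18 fell below it. Normalized counts are counts scaled by edgeR's TMM factors to the mean effective library size. A gene was called, and is said to differ, where edgeR's quasi-likelihood test gave a Benjamini-Hochberg adjusted p under 0.05 over 11934 genes and the fold exceeded 1.75. A log2 fold change is always given as the first line named over the second. The libraries of a line came from separate RNA preparations, which may share a culture, so p-values measure the spread between preparations of 1 line.

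Many of the members differed between the lines. In Cry/Per_KO against Cry/Per/Nr1d_KO, 1 member was higher and 16 were lower, where 7.86% and 8.95% of the genes tested were called in those directions and 16.8% in either. By the deposited names these would be 16 higher and 1 lower, and the next 2 comparisons would trade places. In Per/Nr1d_KO against Cry/Per/Nr1d_KO, 9 members were higher and 10 lower, against 11.3% and 9.35% of the genes tested (20.7% in either direction). In Per/Nr1d_KO against Cry/Per_KO, 15 members were higher and 5 lower, against 15.2% and 13.8% (29.0% in either direction). The median log2 fold change of the members tested was -0.65, 0.38 and 0.52 in these comparisons, and their median absolute log2 fold change was 0.75, 0.83 and 1.20, where all genes tested had 0.34, 0.34 and 0.46. The filter used the mean over all libraries, so a gene that is high in 1 line could pass through that line alone, and these counts are a description of the 34 genes tested. Any 2 of the comparisons share a line. In all, 25 of the 34 were called at least once, 10 in all 3 comparisons and 9 in none, where 36.3%, 5.87% and 63.7% of all genes tested fell into these classes. The Cry/Per_KO-labelled libraries had the lowest mean for 18 of the 34 members and those of Per/Nr1d_KO had the highest mean for 18.

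**Figure D1:**
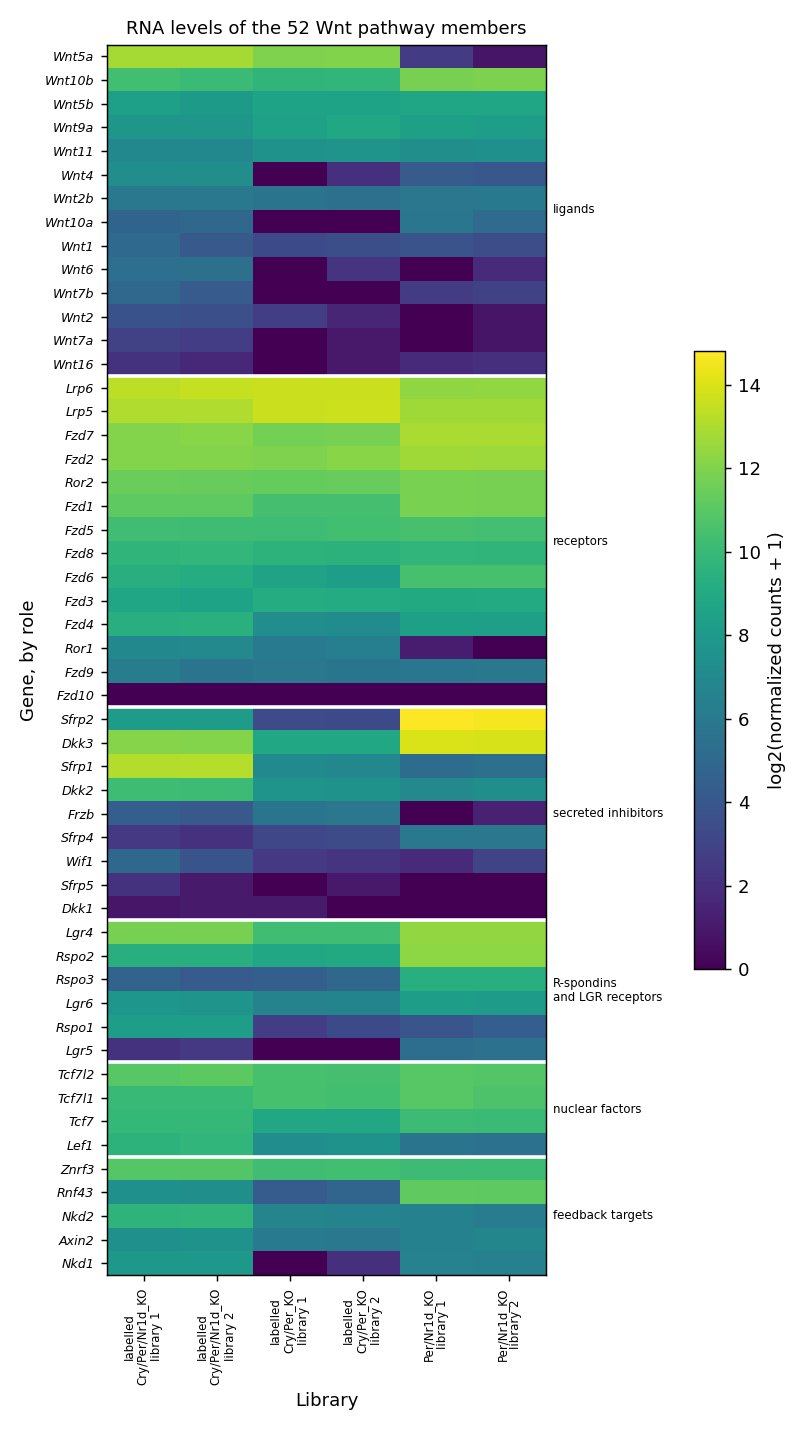
Levels of the 52 members by role (rows) in the 6 libraries (columns), as log2(normalized counts + 1). Wnt5a is dark only in the Per/Nr1d_KO libraries, Sfrp1 is bright only in the Cry/Per/Nr1d_KO-labelled libraries, and Sfrp2 and Dkk3 are brightest in Per/Nr1d_KO.

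Promoters are shown for the 4 members with the largest differences among the tested ones with a RefSeq promoter entry. Each window runs from 250 bases before to 50 bases after an annotated start (for Sfrp2, Nkd1 and Rspo1 a start inside the span given for the gene, and for Rnf43 the first of 2 entries), on the plus strand of GRCm38.p6, and is written 5′ to 3′ with CpG dinucleotides in capitals. The windows are chr3:83766071-83766370 for Sfrp2, chr8:88527383-88527682 for Nkd1, chr11:87662837-87663136 for Rnf43 and chr4:124986180-124986479 for Rspo1.
Sfrp2: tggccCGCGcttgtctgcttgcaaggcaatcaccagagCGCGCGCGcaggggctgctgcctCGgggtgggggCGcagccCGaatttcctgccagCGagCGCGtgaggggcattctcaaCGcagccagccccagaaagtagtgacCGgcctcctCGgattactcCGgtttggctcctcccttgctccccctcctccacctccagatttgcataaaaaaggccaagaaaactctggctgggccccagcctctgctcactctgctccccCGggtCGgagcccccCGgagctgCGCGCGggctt
Nkd1: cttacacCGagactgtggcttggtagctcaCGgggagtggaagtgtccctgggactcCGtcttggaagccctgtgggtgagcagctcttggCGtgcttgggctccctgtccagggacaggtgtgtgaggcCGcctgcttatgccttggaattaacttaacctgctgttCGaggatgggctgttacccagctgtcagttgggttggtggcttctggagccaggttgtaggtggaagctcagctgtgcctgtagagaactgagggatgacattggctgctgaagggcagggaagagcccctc
Rnf43: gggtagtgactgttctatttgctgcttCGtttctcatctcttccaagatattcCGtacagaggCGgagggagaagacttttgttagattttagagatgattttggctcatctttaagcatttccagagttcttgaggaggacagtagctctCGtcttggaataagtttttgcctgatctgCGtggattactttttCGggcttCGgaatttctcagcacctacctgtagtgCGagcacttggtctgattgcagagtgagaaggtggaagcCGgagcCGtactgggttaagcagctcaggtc
Rspo1: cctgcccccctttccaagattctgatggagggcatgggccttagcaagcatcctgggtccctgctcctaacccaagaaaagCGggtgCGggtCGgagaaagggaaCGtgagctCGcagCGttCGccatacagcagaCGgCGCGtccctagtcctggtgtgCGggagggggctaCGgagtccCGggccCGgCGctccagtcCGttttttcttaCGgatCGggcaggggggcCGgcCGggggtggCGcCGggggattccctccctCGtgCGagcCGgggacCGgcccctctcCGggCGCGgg
The windows of Rspo1 and Sfrp2 held 29 and 22 CpGs, and those of Rnf43 and Nkd1 held 10 and 6. Over 32851 promoters of this length the median was 7, and over the 45 promoter entries of 36 members it was 24. The TCF/LEF motif CTTTGAT was searched on both strands and was found in 3.73% of all promoters and in 2 of the 45 member promoters, those of Wnt11 and Wnt5b. Its variant CTTTGAA was found in 5.14% of all promoters and in 1 member promoter, that of Dkk1. Both end in 1 letter that differs and cannot share a site. The E-box CACGTG, which reads the same on both strands and which CLOCK-BMAL1 is known to bind, lay in 7.15% of all promoters and in 4 of the 45, namely those of Fzd9, Lef1, Wif1 and Wnt9a. The motif TAGGTCA, a core of the elements bound by NR1D proteins, lay in 2.61% of all promoters and in 0 of the 45. None of the 4 printed windows held any of these motifs, which says only that the letters are not in these 300 bases.

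Among the ligands, Wnt5a was nearly absent from Per/Nr1d_KO cells and Wnt10b was highest there. Wnt5a (Entrez Gene 22418, chr14:28504543-28527448 in GRCm38.p6), the typical ligand of the non-canonical branch, had 7199 and 7149 normalized counts under the label Cry/Per/Nr1d_KO, 3964 and 4177 under Cry/Per_KO and 5.07 and 0.789 under Per/Nr1d_KO. The lines did not overlap, and both Per/Nr1d_KO libraries together held 5 counts. The ratio to Per/Nr1d_KO was 2951 (95% counting interval 1264 to 9091) for the pair labelled Cry/Per/Nr1d_KO and 1677 (95% counting interval 718 to 5166) for the pair labelled Cry/Per_KO, and counting intervals cover counting error only. Both differences were called by edgeR, with adjusted p = 4.8e-18 and 1.6e-17. Between the 2 lines without CRY and PER, Wnt5a differed, with a log2 fold change of -0.82 (SE 0.056, adjusted p = 4e-09). This last call lay close to the limit on the fold and was lost without Cry/Per_KO replicate 1, where the log2 fold change was -0.78, and when the median of chromosome 14 was subtracted, at -0.75. Of the exon bases of Wnt5a, 4.58% lie opposite exons of Gm2670, and the strand setting of the counting is not stated. The only tested gene within 1 Mb of Wnt5a was called in the same direction in both comparisons with Per/Nr1d_KO and in the opposite direction, at 0.85, in Cry/Per_KO against Cry/Per/Nr1d_KO.

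Wnt10b (chr15:98770712-98778206), a canonical ligand, had 1275 and 1108 normalized counts under the label Cry/Per/Nr1d_KO, 837 and 868 under Cry/Per_KO and 3484 and 3764 under Per/Nr1d_KO. It was higher in Per/Nr1d_KO than in the pair labelled Cry/Per/Nr1d_KO, with a log2 fold change of 1.603 (SE 0.071, adjusted p = 1.3e-11) and than in the pair labelled Cry/Per_KO, with a log2 fold change of 2.09 (SE 0.074, adjusted p = 6.4e-13). The difference between the last 2 pairs, -0.49, was below the limit on the fold. Wnt9a was the member called higher in Cry/Per_KO than in Cry/Per/Nr1d_KO, with 228 and 231 normalized counts under the label Cry/Per/Nr1d_KO, 354 and 451 under Cry/Per_KO and 338 and 320.3 under Per/Nr1d_KO and a log2 fold change of 0.81 (SE 0.12, adjusted p = 2.2e-05). That call was not stable, since the value was 0.62 without Cry/Per_KO replicate 2, whose Wnt9a level was the highest of the 6 libraries, and 0.805, just under the limit, without Cry/Per/Nr1d_KO replicate 1 or Per/Nr1d_KO replicate 2. It was also lost, at 0.78, when the median of chromosome 11 was subtracted. Wnt5b, a non-canonical ligand close to Wnt5a, lay between 269.9 and 439 normalized counts and Wnt11, another non-canonical ligand, between 121 and 203, and neither was called in any comparison, although Wnt11 passed the limit in Cry/Per_KO against Cry/Per/Nr1d_KO, at 0.96, when the median of chromosome 7 was subtracted.

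Per length, the ligands therefore had a different make-up in the lines. By RPKM, the normalized counts divided by the exon length and scaled to library size (computed here), Wnt5a made up 57.9% of the summed level of the 14 ligands in the Cry/Per/Nr1d_KO-labelled libraries and 47.2% in the Cry/Per_KO-labelled ones. In Per/Nr1d_KO, Wnt10b made up 75.5%. The summed RPKM of the ligands was 24.03, 16.7 and 21.4 in that order of lines. These are bulk samples, in which fewer cells that express a gene and less RNA per cell cannot be told apart.

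**Figure D2:**
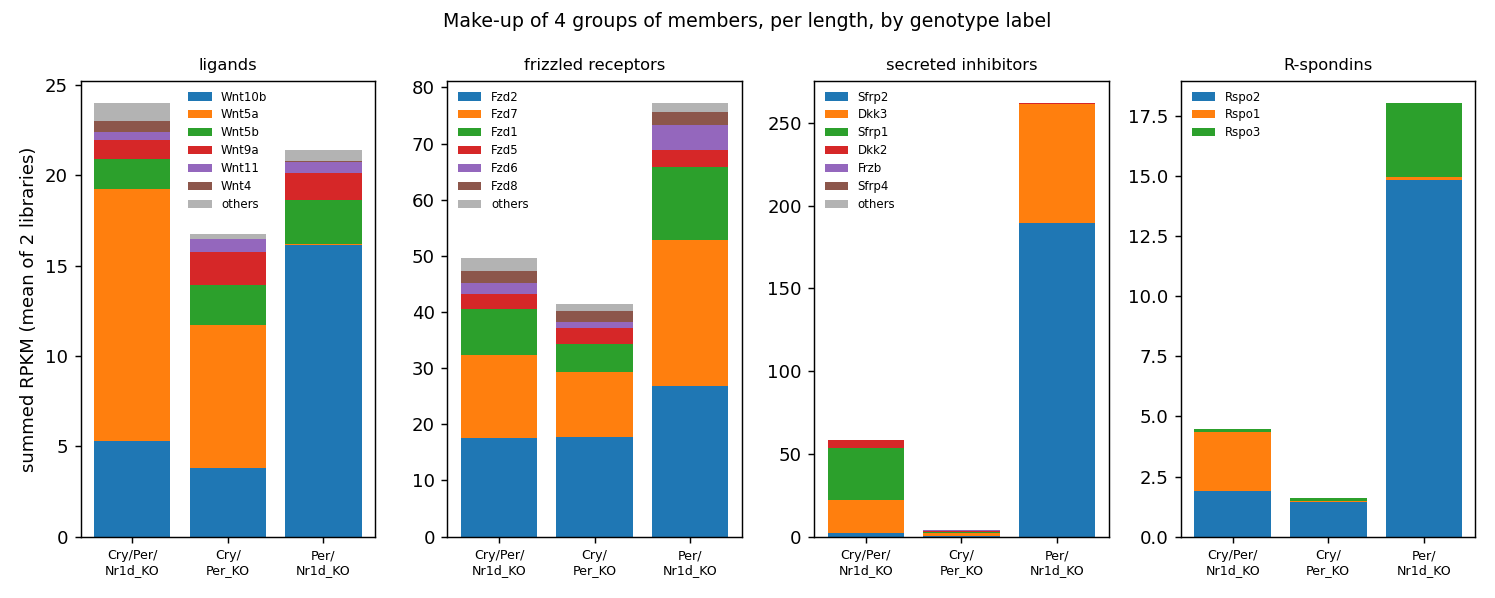
Summed level per length (RPKM, mean of the 2 libraries) of the member ligands, Frizzled receptors, secreted inhibitors and R-spondins (without Rspo4) in the 3 lines, by genotype label. Up to 6 genes of largest share are in colour and the rest in grey. Wnt5a leads the ligands in both lines without CRY and PER, and Wnt10b leads them in Per/Nr1d_KO. The inhibitor bar of the Cry/Per_KO-labelled libraries is the lowest, at 3.78 RPKM.

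The other 9 ligands were below the filter. Wnt4 had 154 and 158 normalized counts under the label Cry/Per/Nr1d_KO, 0 and 2.95 under Cry/Per_KO and 17.7 and 14.99 under Per/Nr1d_KO, and the pair labelled Cry/Per_KO held 3 counts in all. The ratio of the pair labelled Cry/Per/Nr1d_KO to it was 99.6 (95% counting interval 33.8 to 486). Of the 50-base stretches of Wnt4, 3.85% occur in other genes, the largest share among the members. Wnt10a, the neighbour of Wnt6 in the genome, had 26.6 and 31.1 normalized counts under the label Cry/Per/Nr1d_KO, 0 and 0 under Cry/Per_KO and 54.5 and 34.7 under Per/Nr1d_KO. Compared with the pair labelled Cry/Per_KO, with a floor of 3 counts over that pair, its level in Per/Nr1d_KO was at least 27.03-fold higher, and under the label Cry/Per/Nr1d_KO it was at least 18.3-fold higher. The lower limits of the 95% counting intervals were 21.5 and 14.4. Wnt6 had 41.7 and 43.3 normalized counts in the Cry/Per/Nr1d_KO-labelled libraries and at most 3.93 elsewhere. Wnt7b was at 0 in both libraries labelled Cry/Per_KO, at 30.2 and 17.8 in the Cry/Per/Nr1d_KO-labelled ones and at 5.07 and 6.31 in Per/Nr1d_KO. Wnt1 reached 32.9 and Wnt2 12.4, both in a library labelled Cry/Per/Nr1d_KO. Wnt2b was even across the lines at 43.2 to 61.5. Wnt7a and Wnt16 had means below 10 normalized counts.

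The 11 receptors that were tested were counted in every library, and their differences were small beside that of Wnt5a. Of these, 2 were lower in Cry/Per_KO than in Cry/Per/Nr1d_KO, 2 were higher and 2 lower in Per/Nr1d_KO than in Cry/Per/Nr1d_KO, and 4 were higher and 2 lower in Per/Nr1d_KO than in Cry/Per_KO. These were 18.2%, 36.4% and 54.5% of the receptors, against 16.8%, 20.7% and 29.0% of all genes tested, so that the first share lay near the background. Fzd2 and Fzd7, closely related receptors, had the highest RPKM of the Frizzleds in each line, 17.5 and 14.8 in the Cry/Per/Nr1d_KO-labelled libraries, 17.8 and 11.4 in the Cry/Per_KO-labelled ones, and 26.7 and 26.05 in Per/Nr1d_KO. Which Frizzleds lead was thus shared by the lines. The summed RPKM of the 10 Frizzleds was 49.7, 41.5 and 77.3.

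The largest differences among the receptors tested were in Fzd4, Fzd6 and Fzd1. Fzd4 (chr7:89404366-89410110), which also serves as the receptor of norrin, had 624 and 687 normalized counts under the label Cry/Per/Nr1d_KO, 152 and 147 under Cry/Per_KO and 336 and 324 under Per/Nr1d_KO. All 3 lines were separate, and the log2 fold change of the pair labelled Cry/Per_KO against the Cry/Per/Nr1d_KO-labelled one was -2.13 (SE 0.11, adjusted p = 1.2e-10). Per/Nr1d_KO lay between them, at -0.99 against the higher pair and 1.13 against the lower pair. Fzd6 (chr15:39006149-39038192), a Frizzled known from planar cell polarity in skin, had 1468 and 1447 normalized counts in Per/Nr1d_KO, 619.7 and 584 under the label Cry/Per/Nr1d_KO and 373 and 312 under Cry/Per_KO. Its level in Per/Nr1d_KO exceeded both other lines, with log2 fold changes of 1.27 (SE 0.083, adjusted p = 1.4e-09) and 2.09 (SE 0.089, adjusted p = 5.8e-12). The call between the other lines (-0.82) was lost without Cry/Per_KO replicate 2, at -0.69, without Cry/Per/Nr1d_KO replicate 1, at -0.77, and when the median of chromosome 15 was subtracted, at -0.53. Fzd1 (chr5:4753839-4758216) had 3688 and 3469 normalized counts in Per/Nr1d_KO, 2280.01 and 2249 under the label Cry/Per/Nr1d_KO and 1402 and 1418 under Cry/Per_KO, and only the difference of Per/Nr1d_KO from Cry/Per_KO, 1.34 (SE 0.057, adjusted p = 5.7e-12), was called.

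Fzd7 was higher in Per/Nr1d_KO, with log2 fold changes of 0.81 and 1.19. The first of these lay at the limit on the fold, and was lost without Cry/Per/Nr1d_KO replicate 1 (0.76), without Per/Nr1d_KO replicate 2, with DESeq2 and with RLE factors (0.80 in each), with the compared groups alone (0.806) and when the median of chromosome 1 was subtracted (0.53). The co-receptors moved the other way. Lrp6 was lower in Per/Nr1d_KO, with log2 fold changes of -1.05 and -1.26, and Lrp5 was lower than in Cry/Per_KO, with a log2 fold change of -0.95. Lrp6 lies on chromosome 6, where 13 of the 15 tested genes within 1 Mb were also called in Per/Nr1d_KO against Cry/Per_KO and had a median log2 fold change of -1.50. Fzd2, Fzd3, Fzd5, Fzd8 and the WNT5A receptor Ror2 were called in no comparison, and of these Fzd5 and Fzd8 had their largest absolute log2 fold changes at 0.18 and 0.17. Of the exon bases of Fzd5, 17.8% lie opposite exons of another gene.

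Below the filter were 3 receptors. Ror1, like Ror2 a receptor of WNT5A, had 119.9 and 123 normalized counts under the label Cry/Per/Nr1d_KO, 64.6 and 84.4 under Cry/Per_KO and 1.27 and 0 under Per/Nr1d_KO, and Per/Nr1d_KO held 1 count in all. The ratio to Per/Nr1d_KO was 249.6 (95% counting interval 44.4 to 9898) for the pair labelled Cry/Per/Nr1d_KO. Ror1 was thus near 0 in the same libraries as Wnt5a. Fzd9 lay between 49.98 and 73.7 normalized counts in all libraries, and Fzd10 had 0 counts in each library.

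The secreted inhibitors had the largest median absolute log2 fold change of the roles in each comparison (4.04, 4.79 and 3.34 over the 4 tested), and each line had its own leading inhibitor. A gene could pass the filter through the line where it was high, so this order of roles describes only the genes tested. Sfrp1 (chr8:23411383-23449632) had 8919 and 9341 normalized counts under the label Cry/Per/Nr1d_KO, 131 and 119.8 under Cry/Per_KO and 36.8 and 42.6 under Per/Nr1d_KO. It was the leading inhibitor of the Cry/Per/Nr1d_KO-labelled libraries, and its level was 72.7-fold lower in the Cry/Per_KO-labelled ones, a log2 fold change of -6.19 (SE 0.076, adjusted p = 1.1e-16). In Per/Nr1d_KO it was 230.1-fold lower than in the pair labelled Cry/Per/Nr1d_KO, -7.82 (SE 0.089, adjusted p = 2.2e-18), and lower than in the pair labelled Cry/Per_KO, with a log2 fold change of -1.63. Of the 13 tested genes within 1 Mb of Sfrp1, 3 were called in the first of these comparisons and 3 in the second.

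Sfrp2 (chr3:83765750-83774314), whose promoter is the first of those shown, had the reverse pattern between 2 of the lines, with 28723 and 25088 normalized counts in Per/Nr1d_KO, 279 and 283 under the label Cry/Per/Nr1d_KO and 10.02 and 8.84 under Cry/Per_KO. The log2 fold change of Per/Nr1d_KO was 6.58 (SE 0.078, adjusted p = 3e-18) against the pair labelled Cry/Per/Nr1d_KO and 11.46 (SE 0.12, adjusted p = 7.4e-19) against the pair labelled Cry/Per_KO, where 18 counts were held in all. The ratio in the last comparison was 2820.3 (95% counting interval 1784 to 4759). Between the lines without CRY and PER, Sfrp2 was 29.8-fold lower in the pair labelled Cry/Per_KO. Of its exon bases, 16.1% lie opposite exons of Gm26771. Chromosome 3 as a whole had a median log2 fold change of 0.88 in Per/Nr1d_KO against Cry/Per_KO and -0.65 in Cry/Per_KO against Cry/Per/Nr1d_KO, which also touches Dkk2, Lef1 and Wnt2b, and the calls of Sfrp2 were kept when the chromosome median was subtracted.

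Dkk3 (chr7:112116019-112159482), a divergent Dickkopf that is not known to bind LRP6 as its relatives do, followed Sfrp2 with 16121 and 15505 normalized counts in Per/Nr1d_KO, 4451 and 4332 under the label Cry/Per/Nr1d_KO and 476 and 476 under Cry/Per_KO. Its differences were -3.20 (SE 0.057, adjusted p = 1.8e-15) for Cry/Per_KO against Cry/Per/Nr1d_KO and 5.05 (SE 0.057, adjusted p = 1.5e-18) for Per/Nr1d_KO against Cry/Per_KO. Dkk2, an inhibitor that binds LRP6, followed Sfrp1: it was lower in Cry/Per_KO and in Per/Nr1d_KO than in Cry/Per/Nr1d_KO, with log2 fold changes of -2.59 and -2.99, while the difference between the first 2 (-0.40) was below the limit on the fold and passed it when the median of chromosome 3 was subtracted, at -1.28. All 4 inhibitors tested were lower in Cry/Per_KO than in Cry/Per/Nr1d_KO, as were 8.95% of all genes tested. In Per/Nr1d_KO against Cry/Per/Nr1d_KO, 2 were higher and 2 lower, beside 11.3% and 9.35% of all genes.

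Below the filter, Sfrp4 had 60.8 and 58.4 normalized counts in Per/Nr1d_KO and at most 9.82 in the other libraries. Frzb, a member of the SFRP family, had its highest level in the Cry/Per_KO-labelled libraries, with 20.4 and 16.7 normalized counts under the label Cry/Per/Nr1d_KO, 53.4 and 56.95 under Cry/Per_KO and 0 and 1.58 under Per/Nr1d_KO. Its ratio of the pair labelled Cry/Per_KO to Per/Nr1d_KO, which held 2 counts, was 56.9 (95% counting interval 15.4 to 476). Wif1 lay between 2.53 and 31.1, and Sfrp5 and Dkk1 had means below 10.

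Summed over the 9 inhibitors, the Cry/Per_KO-labelled libraries held 884 and 868 normalized counts, the Cry/Per/Nr1d_KO-labelled ones 14916 and 15142, and those of Per/Nr1d_KO 45069.7 and 40867. Per length, Sfrp1 made up 54.1% of the inhibitor level in the Cry/Per/Nr1d_KO-labelled libraries, Dkk3 56.9% in the Cry/Per_KO-labelled ones and Sfrp2 72.4% in Per/Nr1d_KO. Sfrp2 in Per/Nr1d_KO, at 189.7 RPKM, and Dkk3 in the same line, at 71.5 RPKM, were the most abundant members per length in any line.

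**Figure D3:**
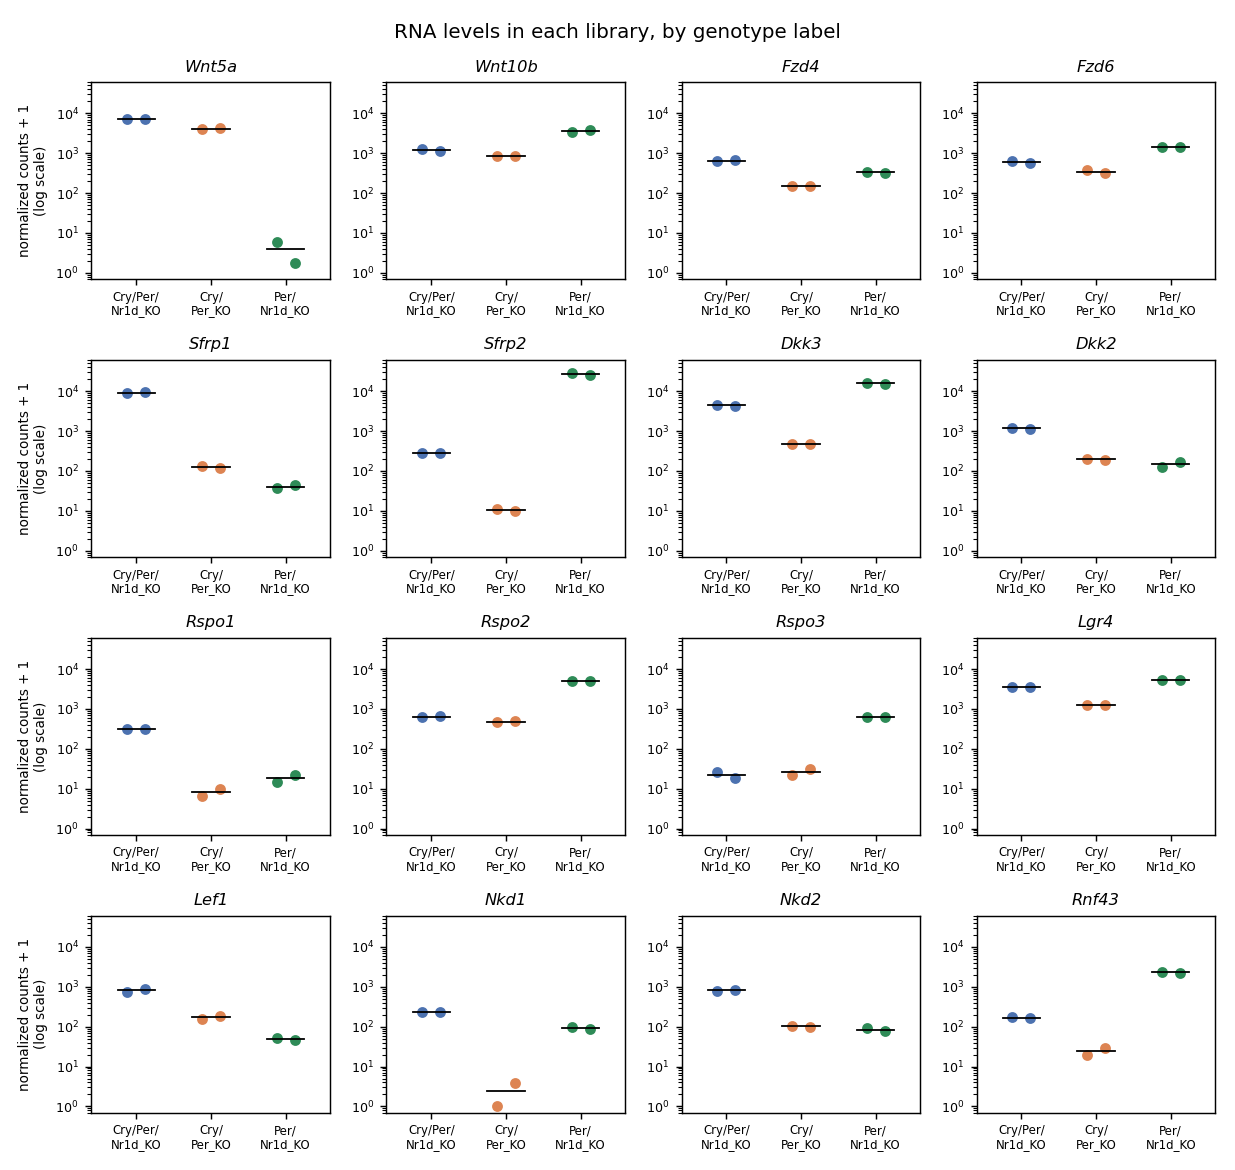
Normalized counts + 1 (log axis) of 16 members in each library (points) with the mean of the 2 libraries (black line), by genotype label. Sfrp2 spans 8.84 to 28723 normalized counts and Wnt5a 0.789 to 7199.

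R-spondins and their receptors were highest in Per/Nr1d_KO for 4 of the 5 tested. All 5 were higher in Per/Nr1d_KO than in Cry/Per_KO, 3 were lower in Cry/Per_KO than in Cry/Per/Nr1d_KO, and 2 were higher and 1 was lower in Per/Nr1d_KO than in Cry/Per/Nr1d_KO. The shares of all genes tested called in these directions were 15.2%, 8.95%, 11.3% and 9.35%. Rspo3 passed the filter through Per/Nr1d_KO and Rspo1 through the Cry/Per/Nr1d_KO-labelled libraries, so these counts describe only the genes tested. Rspo2 (chr15:43020788-43171594), known for its role in limb outgrowth, had 5000.3 and 5001 normalized counts in Per/Nr1d_KO, 636 and 652 under the label Cry/Per/Nr1d_KO and 464 and 501 under Cry/Per_KO. The increase in Per/Nr1d_KO was 7.77-fold and 10.4-fold, with log2 fold changes of 2.96 (SE 0.063, adjusted p = 1.6e-15) and 3.37 (SE 0.065, adjusted p = 4.6e-16), and the difference between the other lines (-0.41) was not called. Rspo3 (chr10:29453106-29535867) had 625 and 628 normalized counts in Per/Nr1d_KO, 24.9 and 17.8 under the label Cry/Per/Nr1d_KO and 21.1 and 30.4 under Cry/Per_KO, and Per/Nr1d_KO exceeded both other lines, with log2 fold changes of 4.84 (SE 0.16, adjusted p = 4.7e-13) and 4.58 (SE 0.16, adjusted p = 5.5e-13). Of the exon bases of Rspo3, 13.1% lie opposite exons of Gm48159.

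Rspo1 (chr4:124986401-125009102), whose promoter window holds the most CpGs of those shown, was by contrast highest in the Cry/Per/Nr1d_KO-labelled libraries, with 309.9 and 314 normalized counts under the label Cry/Per/Nr1d_KO, 5.56 and 8.84 under Cry/Per_KO and 13.9 and 20.5 under Per/Nr1d_KO. It was lower in the pair labelled Cry/Per_KO, with a log2 fold change of -5.39 (SE 0.23, adjusted p = 2.1e-11) and in Per/Nr1d_KO, with a log2 fold change of -4.11 (SE 0.19, adjusted p = 1.9e-11). The call of Per/Nr1d_KO above Cry/Per_KO, 1.28 (SE 0.42, adjusted p = 0.011), rested on few counts and was lost without Cry/Per_KO replicate 1 (adjusted p = 0.073) and without Per/Nr1d_KO replicate 2 (adjusted p = 0.14). Per length, Rspo1 made up 54.8% of the summed level of Rspo1, Rspo2 and Rspo3 in the Cry/Per/Nr1d_KO-labelled libraries. Rspo2 made up 88.7% of it in the Cry/Per_KO-labelled ones and 82.2% in Per/Nr1d_KO. Rspo4, an R-spondin that is no member, was left out of this sum. It had 0.574 RPKM under the label Cry/Per/Nr1d_KO, 0.0859 under Cry/Per_KO and 0.0106 under Per/Nr1d_KO.

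Lgr4 was the main LGR receptor of each line, with 5355 and 5469.6 normalized counts in Per/Nr1d_KO, 3488 and 3554 under the label Cry/Per/Nr1d_KO and 1225 and 1232 under Cry/Per_KO. It was lower in Cry/Per_KO than in Cry/Per/Nr1d_KO, with a log2 fold change of -1.52 and higher in Per/Nr1d_KO than in Cry/Per_KO, with a log2 fold change of 2.14. Lgr6 had the same calls, at -1.09 and 1.59. Lgr5, a stem cell marker and a canonical target in gut, was below the filter with 3.55 and 4.44 normalized counts under the label Cry/Per/Nr1d_KO, 0 and 0 under Cry/Per_KO and 40.6 and 46.6 under Per/Nr1d_KO, so with the floor of 3 counts over the pair labelled Cry/Per_KO, Per/Nr1d_KO was at least 28.3-fold higher, and the lower limit of the 95% counting interval was 22.5. Its ratio to the pair labelled Cry/Per/Nr1d_KO was 11.2 (95% counting interval 5.46 to 26.8).

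All 4 nuclear factors were tested, and Lef1 differed most. Lef1 (chr3:131110297-131224357), both a partner of β-catenin and a canonical target, had 747 and 875 normalized counts under the label Cry/Per/Nr1d_KO, 155 and 189.5 under Cry/Per_KO and 51.97 and 44.2 under Per/Nr1d_KO. The 3 lines were separate, and Lef1 was lower in the pair labelled Cry/Per_KO, with a log2 fold change of -2.23 (SE 0.12, adjusted p = 3.2e-10) and in Per/Nr1d_KO, with a log2 fold change of -4.09 (SE 0.15, adjusted p = 1.2e-12). The step between the last 2 lines was -1.87 (SE 0.18, adjusted p = 1.6e-07). It lies on chromosome 3 with Sfrp2, 13.7% of its exon bases lie opposite exons of Gm43352, and 4 of its 7 tested neighbours within 1 Mb were called in Cry/Per_KO against Cry/Per/Nr1d_KO.

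Tcf7 (chr11:52246527-52283383) had 916 and 928 normalized counts under the label Cry/Per/Nr1d_KO, 479.7 and 464 under Cry/Per_KO and 1122 and 1078 under Per/Nr1d_KO. It was lower in Cry/Per_KO than in Cry/Per/Nr1d_KO, with a log2 fold change of -0.97 (SE 0.077, adjusted p = 2.4e-08) and higher in Per/Nr1d_KO than in Cry/Per_KO, with a log2 fold change of 1.219 (SE 0.076, adjusted p = 6.4e-10). Tcf7l1, the member of the family best known as a repressor, had 989.96 and 1032 normalized counts under the label Cry/Per/Nr1d_KO, 1429 and 1274 under Cry/Per_KO and 1975 and 1664 under Per/Nr1d_KO. Its call in Per/Nr1d_KO against Cry/Per/Nr1d_KO, 0.84 (SE 0.085, adjusted p = 2.7e-07), was lost without Per/Nr1d_KO replicate 1, at 0.72, and the difference from Cry/Per_KO passed the limit, at 0.84, when the median of chromosome 6 was subtracted. Tcf7l2 was called in no comparison, its log2 fold changes lying between -0.55 and 0.40. By level per length, Tcf7 led in the Cry/Per/Nr1d_KO-labelled libraries (37.4% of the family) and Tcf7l1 in the Cry/Per_KO-labelled ones and in Per/Nr1d_KO (48.8% and 42.03%).

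The feedback genes are switched on by canonical signalling and limit it, and 4 of 5 were lower in Cry/Per_KO than in Cry/Per/Nr1d_KO. In Per/Nr1d_KO against Cry/Per/Nr1d_KO, 1 was higher and 3 were lower, and against Cry/Per_KO 2 were higher. Of all genes tested, 8.95% were called in the first of these directions, 11.3% and 9.35% in the next 2 and 15.2% in the last. Nkd1 (chr8:88521342-88594887), which binds Dishevelled, had 235 and 237 normalized counts under the label Cry/Per/Nr1d_KO, 0 and 2.95 under Cry/Per_KO and 95.1 and 86.01 under Per/Nr1d_KO, and the pair labelled Cry/Per_KO held 3 counts in all. Its ratio to that pair was 151 (95% counting interval 51.3 to 733) for the pair labelled Cry/Per/Nr1d_KO and 57.2 (95% counting interval 19.3 to 279.8) for Per/Nr1d_KO. Both differences were called by edgeR (adjusted p = 8.5e-11 and 6.2e-09), as was that of Per/Nr1d_KO against Cry/Per/Nr1d_KO, -1.39. Of the 8 tested genes within 1 Mb of Nkd1, 1 was called in the first comparison and 3 in the second.

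Rnf43 (chr11:87663087-87735539), the ligase that R-spondins hold back, had 2359 and 2284 normalized counts in Per/Nr1d_KO, 169.6 and 165 under the label Cry/Per/Nr1d_KO and 18.9 and 27.5 under Cry/Per_KO. It was higher in Per/Nr1d_KO, with log2 fold changes of 3.79 (SE 0.09, adjusted p = 5.8e-15) and 6.62 (SE 0.13, adjusted p = 3.4e-16), the latter a 100.04-fold difference, and lower in Cry/Per_KO than in Cry/Per/Nr1d_KO, with a log2 fold change of -2.83. Its partner Znrf3 was called in no comparison, with 1922 and 1861 normalized counts under the label Cry/Per/Nr1d_KO, 1212 and 1262 under Cry/Per_KO and 1145 and 1148 under Per/Nr1d_KO. The 2 ligases thus had unlike patterns. Nkd2 (chr13:73818534-73847631), the paralog of Nkd1, had 799.96 and 828 normalized counts under the label Cry/Per/Nr1d_KO, 106 and 97.2 under Cry/Per_KO and 89.99 and 76.5 under Per/Nr1d_KO. It was lower in both other lines than in the Cry/Per/Nr1d_KO-labelled libraries, with log2 fold changes of -3.00 (SE 0.11, adjusted p = 5.8e-12) and -3.31 (SE 0.12, adjusted p = 7.1e-13), and unlike Nkd1 was not called between them (-0.30). Axin2, a widely used readout of canonical signalling, had 172 and 184 normalized counts under the label Cry/Per/Nr1d_KO, 64.6 and 58.9 under Cry/Per_KO and 89.99 and 109 under Per/Nr1d_KO. It was highest in the Cry/Per/Nr1d_KO-labelled libraries, with differences of -1.53 (SE 0.16, adjusted p = 5.6e-07) for Cry/Per_KO and -0.81 (SE 0.15, adjusted p = 0.00012) for Per/Nr1d_KO. The second of these calls was lost without Per/Nr1d_KO replicate 1, at -0.71, and without Cry/Per/Nr1d_KO replicate 2, at -0.77. The difference of Per/Nr1d_KO from Cry/Per_KO, 0.71, was not called, though it was called at 0.82 without Per/Nr1d_KO replicate 1.

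**Figure D4:**
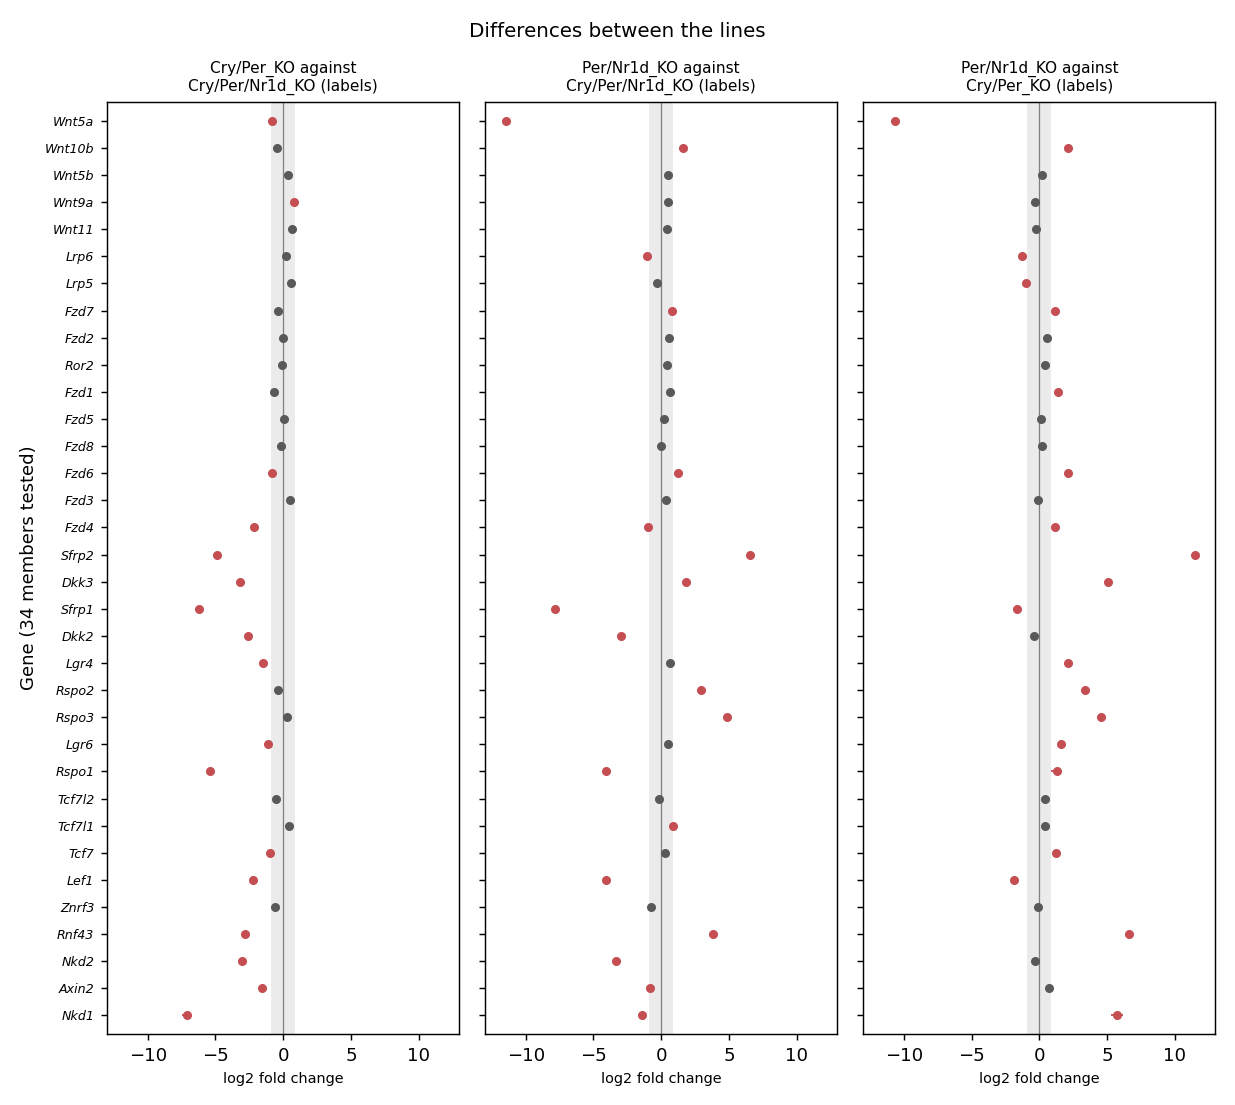
Log2 fold changes of the 34 members tested, by role, in the 3 comparisons of lines by genotype label, with standard errors of the edgeR fit as bars, mostly smaller than the points. Red points were called, grey points were not, and the grey band marks folds under 1.75. In the left panel 16 red points lie left of the band and 1 right of it, and in the right panel 15 lie right of it and 5 left.

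When the members between a mean of 10 and 100 were fitted too, at a mean of at least 10 over 14770 genes, 9 of those 11 were called by edgeR in at least 1 comparison. Of the 2836 genes of that range of means, 74.0% were called at least once and 46.0%, 50.9% and 54.3% in the single comparisons in the order above, so the share of these members lay near that of other genes of like level. Wnt2b and Fzd9 were the ones not called.

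Other genes of the pathway were counted from a list of 67, of which 54 were tested. In Cry/Per_KO against Cry/Per/Nr1d_KO, 3 of the 54 were higher and 5 lower, in Per/Nr1d_KO against Cry/Per/Nr1d_KO 4 were higher and 10 lower, and in Per/Nr1d_KO against Cry/Per_KO 10 were higher and 11 lower. The shares called were 14.8%, 25.9% and 38.9%, against 16.8%, 20.7% and 29.0% of all genes tested, the first being below the background. Tspan12, a tetraspanin that acts with FZD4 in norrin signalling, had 217 and 219.9 normalized counts under the label Cry/Per/Nr1d_KO, 847 and 855 under Cry/Per_KO and 8.87 and 3.95 under Per/Nr1d_KO. Its order of lines thus differed from that of Fzd4, which was lowest in the Cry/Per_KO-labelled libraries. Celsr2, a planar polarity cadherin, was lower in Cry/Per_KO than in Cry/Per/Nr1d_KO, with a log2 fold change of -3.82, and higher in Per/Nr1d_KO than in Cry/Per_KO, at 4.53. Apc2, a relative of the destruction complex protein APC, was lower in Per/Nr1d_KO than in Cry/Per/Nr1d_KO, with a log2 fold change of -4.00. Ctnnb1, which encodes the β-catenin of the canonical branch, and Porcn, the enzyme that lipidates Wnts, were named after their values were seen: neither was called, with log2 fold changes of 0.11, -0.39 and -0.49 for Ctnnb1.

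Further commonly cited Wnt targets were taken from a list of 30, of which 19 were tested. Of these, 4 were lower in Cry/Per_KO than in Cry/Per/Nr1d_KO, 2 were higher and 6 lower in Per/Nr1d_KO than in Cry/Per/Nr1d_KO, and 6 were higher and 7 lower in Per/Nr1d_KO than in Cry/Per_KO. These were 21.1%, 42.1% and 68.4% of the targets, beside the same 16.8%, 20.7% and 29.0%. Bambi, a pseudoreceptor that limits TGF-β signalling, was lower in Per/Nr1d_KO, with log2 fold changes of -3.33 and -3.97. Ccn5, a secreted matricellular protein, was lower in Cry/Per_KO than in Cry/Per/Nr1d_KO, with a log2 fold change of -1.40 and higher in Per/Nr1d_KO than in both, with log2 fold changes of 2.56 and 3.95. The targets did not all move in the direction of Axin2.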

How the data were processed

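Poly-A RNA of the 6 libraries was sequenced as stranded single-end reads of 50 bases. Per the labels, STAR was used to map them to mm10 and featureCounts to count them, and the raw counts per gene were deposited by the authors without normalization. The strand setting and the treatment of multi-mapping reads are not given in the sources used here. The deposited DESeq2 (1.22.2) tables hold the authors' fold changes and p-values and were not used. Symbols and coordinates came from RefSeq's table of GRCm38.p6, exon lengths and overlaps from GENCODE vM21, and promoters from RefSeq.

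edgeR 4.0.16 under R 4.3.3 was run as 1 quasi-likelihood fit of 3 groups, with TMM factors, over genes whose normalized counts averaged 100 or more. The SE is the log2 fold change divided by the square root of F. The common biological coefficient of variation was 0.0393. Tested on simulated counts for Cry/Per_KO against Cry/Per/Nr1d_KO over 11934 genes, the fit recovered 99 of 100 genes changed 2-fold and 100 of 100 changed 4-fold, with 0 false calls. Only 100 genes were changed in each run, while 2006 were called in the data for that comparison. The result therefore holds for that setting alone and does not bear on the history of a line. Alternatives were DESeq2 1.42.0, RLE factors, other filters, no limit on the fold, glmTreat, the compared groups alone, a replicate block, leaving out each library, and subtracting chromosome medians. The subtraction was made from the fitted log2 fold changes, and the shifted values were not tested anew. Intervals are exact 95% counting intervals, and the reads carry no molecular identifiers.

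The members and lists were chosen with earlier results of these data known. By rule, values per library are given for the 3 called members of each role with the largest absolute log2 fold change and for some others, and the 3 called genes of each other list with the largest change are named, of which 1 is not reported here.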

Additional observations from a re-analysis of the deposited data

How the results depend on the processing

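Of the 3 comparisons, the number of members called lower in Cry/Per_KO than in Cry/Per/Nr1d_KO and the numbers called in Per/Nr1d_KO against Cry/Per_KO stayed within 1.5 times their values in every alternative that was run. Not every member could be tested in each alternative. Without Cry/Per/Nr1d_KO replicate 1 only 31 members reached the filter, and without replicate 2 only 32, against 34 in the main fit. The 1 member called higher in Cry/Per_KO than in Cry/Per/Nr1d_KO, Wnt9a, lost its call with glmTreat, with the compared groups alone and with a replicate block, which left 0 members. Subtraction of chromosome medians shifted the log2 fold change alone and kept the adjusted p of the main fit. By it, Tcf7l1 (0.84) and Dkk2 (-1.28) passed the limit on the fold in Per/Nr1d_KO against Cry/Per_KO. The number called higher in Cry/Per_KO than in Cry/Per/Nr1d_KO stayed at 1 with another gene, since Wnt9a (0.78) fell below that limit and Wnt11 (0.96) passed it. That number was 2 at a mean of at least 10 and with no filter, 7 without a limit on the fold, and 0 to 1 when single libraries were left out. The number called lower in Per/Nr1d_KO than in Cry/Per/Nr1d_KO rose from 10 to 16 at a mean of at least 10 and to 19 with no filter, because more members were tested, and the number called higher went from 9 to 20 without a limit on the fold.

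Some log2 fold changes below the limit on the fold turned their sign. In Cry/Per_KO against Cry/Per/Nr1d_KO these were Fzd2, Fzd5 and Rspo3, which ran from -0.10 to 0.14, from -0.011 to 0.083 and from -0.036 to 0.55 as single libraries were left out and were lowest without Cry/Per_KO replicate 2, and Fzd2 (-0.013) and Lrp6 (-0.13) after subtraction of chromosome medians. In Per/Nr1d_KO against Cry/Per/Nr1d_KO they were Fzd8, at -0.00016 with DESeq2 and from -0.049 to 0.066 as single libraries were left out, below 0 without replicate 1 of Cry/Per/Nr1d_KO or of Per/Nr1d_KO, and Fzd3 (-0.14) and Fzd5 (-0.10) after subtraction of chromosome medians. In Per/Nr1d_KO against Cry/Per_KO it was Fzd5 (-0.12) after that subtraction. None of these was called. After subtraction the sign turned because the chromosome median was larger than the value of the gene, and the cause of the other turns was not tested. Not all log2 fold changes that turned were near 0 in the main fit, where Fzd3 was at 0.38 in Per/Nr1d_KO against Cry/Per/Nr1d_KO. Lrp6 was at 0.21 in Cry/Per_KO against Cry/Per/Nr1d_KO. The test against the fold limit itself, glmTreat, ended 10 calls of members. These were, in Cry/Per_KO against Cry/Per/Nr1d_KO, Wnt5a, Wnt9a and Fzd6 (adjusted p = 1 in each), Lgr6 (0.056) and Tcf7 (0.062), in Per/Nr1d_KO against Cry/Per/Nr1d_KO, Fzd7 and Axin2 (1 in each), Tcf7l1 (0.74) and Fzd4 (0.053), and in Per/Nr1d_KO against Cry/Per_KO, Rspo1 (0.19). With the compared groups alone, Fzd7 (0.806) lost its call in Per/Nr1d_KO against Cry/Per/Nr1d_KO.

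The replicate numbers were not treated as pairs in the main fit. Deviations of same-numbered libraries from their group means had correlations of -0.19, -0.08 and -0.02 across genes. With 2 libraries per line, these values cannot tell whether same-numbered libraries were prepared together. With a replicate block, Wnt9a was at 0.806 and its call was lost, and no other call of a member changed. With 2 libraries per line, each spread rests on few values, and members under about 10 normalized counts are limited by counting.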

Other observations

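Genes near some of the members that differed most were counted as a description of their surroundings. Of the tested genes within 1 Mb of Sfrp2, 6 of 8 were called in Per/Nr1d_KO against Cry/Per_KO, with a median log2 fold change of 0.90, the sign of Sfrp2 itself. In the same comparison, 3 of 21 near Rnf43 were called, 1 of 13 near Rspo1 and 1 of 4 near Rspo2, where 29.0% of all genes tested were called. Near Dkk2 and Lef1 on chromosome 3, 7 of 9 and 5 of 7 were called in the same comparison, with median log2 fold changes of 0.93 and 1.17, while Dkk2 itself was at -0.40 and Lef1 at -1.87. In that comparison the values of both members had the sign opposite to the median of the genes around them. In Cry/Per_KO against Cry/Per/Nr1d_KO they had the same sign, with medians of -0.58 near Dkk2 (3 of 9 called) and -1.03 near Lef1 (4 of 7 called).

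Of the genes that act on Wnt proteins on their way out of the cell or outside it, Wls, the carrier of Wnts to the surface, had 16646 and 16402 normalized counts under the label Cry/Per/Nr1d_KO, 9789.8 and 9653 under Cry/Per_KO and 19455 and 21159 under Per/Nr1d_KO, and was called between Per/Nr1d_KO and Cry/Per_KO at 1.06 (SE 0.047, adjusted p = 8.6e-12). Wls lies on chromosome 3, and when the median of that chromosome was subtracted the log2 fold change was 0.18, below the limit on the fold. Notum, a secreted enzyme that removes the lipid from Wnts and is a feedback target, had 783 and 746 normalized counts under the label Cry/Per/Nr1d_KO, 1407 and 1531 under Cry/Per_KO and 318 and 288 under Per/Nr1d_KO. It was highest in the Cry/Per_KO-labelled libraries, the line in which 4 of 5 feedback genes of the members were lower than in Cry/Per/Nr1d_KO. Both genes were chosen after their values were seen.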
